A study of Bos taurus with 15 samples.

Results

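POU5F1, KLF4, TEAD4, GATA6 and DAB2 are genes of the first cell fates of the mammalian embryo, and their transcript levels were followed here from the bovine (Bos taurus) oocyte to the blastocyst. Every probe set to which the array annotation gave 1 of these 5 symbols was taken, whatever its values, which gave 6 probe sets of 24016 tested and 5 of 9155 named genes. DAB2 had 2 probe sets and each of the other genes had 1. Their NCBI Gene identifiers are 282316 for POU5F1, 520842 for KLF4, 526771 for TEAD4, 654400 for GATA6 and 509221 for DAB2.

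By the blastocyst stage a mammalian embryo holds an outer epithelium, the trophectoderm, which forms the fetal part of the placenta, and an inner cell mass, which divides into the epiblast and the hypoblast. POU5F1 (OCT4) and KLF4 are transcription factors known from the pluripotent state of the epiblast. TEAD4 is the DNA-binding partner of the Hippo pathway co-activators in the trophectoderm, and GATA6 is a zinc finger factor of the hypoblast. DAB2 is no transcription factor: it is an adaptor that links cargo receptors to the clathrin coat in endocytosis, and it is a marker of extraembryonic endoderm and epithelia. These roles are background and were not tested in the bovine embryos here.

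The series measured total RNA of 8 stages on Affymetrix Bovine Genome arrays, after 3 rounds of amplification. Oocytes, morulae and blastocysts had 3 arrays each, 1-cell embryos had 2, and 2-, 4-, 8- and 16-cell embryos had 1 each, 15 arrays in all. Oocytes were aspirated from ovarian follicles and matured in vitro, and all embryos were fertilized in vitro and cultured in synthetic oviduct fluid. No group carried a treatment or a genetic change, and the number of oocytes or embryos behind an array is not given in the sources used here. The titles call the replicates biological, and the p-values below measure the spread between these arrays. A signal is an intensity on a linear scale, so changes are read between stages of 1 probe set. Where signals of different probe sets stand side by side, their difference is not read as a difference in RNA amount. Every array pooled all cells of its embryos, so that fewer cells of a type and less RNA per cell cannot be told apart. No lineage was measured by itself.

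The number of arrays limited the precision. Over all 24128 probe sets, control probe sets included, arrays had mean signals between 558 and 717 and medians between 39.7 and 61.7. The labels were compared with markers of the cells each sample could hold. All 9 measured oocyte markers (of 10 listed, among them the zona pellucida genes) were lower in morulae than in oocytes, with summed signals of 32868 to 60021 in oocytes, 13091 on the 16-cell array, 1252 to 4270 in morulae and 1182 to 1473 in blastocysts. Of 12 stromal and theca markers none passed the test in morulae, but their summed signal was 6134 on the 16-cell array and between 410 and 4356 in morulae, against 436 to 970 on the other arrays outside blastocysts and 638 to 908 in blastocysts. The markers did not move together. On the 16-cell array COL1A2 reached 2432, VIM 1959 and LUM 1397, but COL1A1 was 8.43, COL3A1 25.9, THY1 15.3 and PDGFRB 99.6. Of the 12, 4 were higher on this array than on every other array: COL1A2, VIM, LUM and INSL3, the last at only 27.6. The share of all probe sets that did so was not counted. On morula array 3 THY1 reached 2421, DCN 1324 and LUM 256, but VIM was 56.3, COL1A2 64.1 and PDGFRB 81.1. The 18 measured cumulus and granulosa markers (of 20) summed to between 6593 and 7371 in oocytes and to 8531 on the 16-cell array. In morulae they summed to 9785 to 11469, where HAS2 alone gave 8622 to 9257. Their sum was highest in blastocysts, at 12498 to 17675. There HAS2 gave 6215 to 8720, PTGS2 1855 to 6410 and HSD3B1 1458 to 3867, and PTGS2 is also on the trophectoderm list used below. In morulae 1 of these 18 was higher and 4 were lower, where 11.8% of all probe sets were higher and 7.16% lower. Blood and immune markers (11 of 12 measured) had 2 higher and 1 lower, and sperm markers (9 of 10) had 1 higher. Probe sets for bacterial transcripts added as labelling controls gave high signal on 9 arrays and not on 6, and both kinds occurred among oocytes, 1-cell embryos, morulae and blastocysts. The 2-, 4-, 8- and 16-cell arrays all had the control signal, and morula arrays 1 and 2 had not. Stage and control signal are therefore partly confounded where morulae are set against these single arrays. The part of these differences in the results was not tested. Values with the control signal as a block, or within each kind of array, are given below for some of the results.

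**Figure D1:**
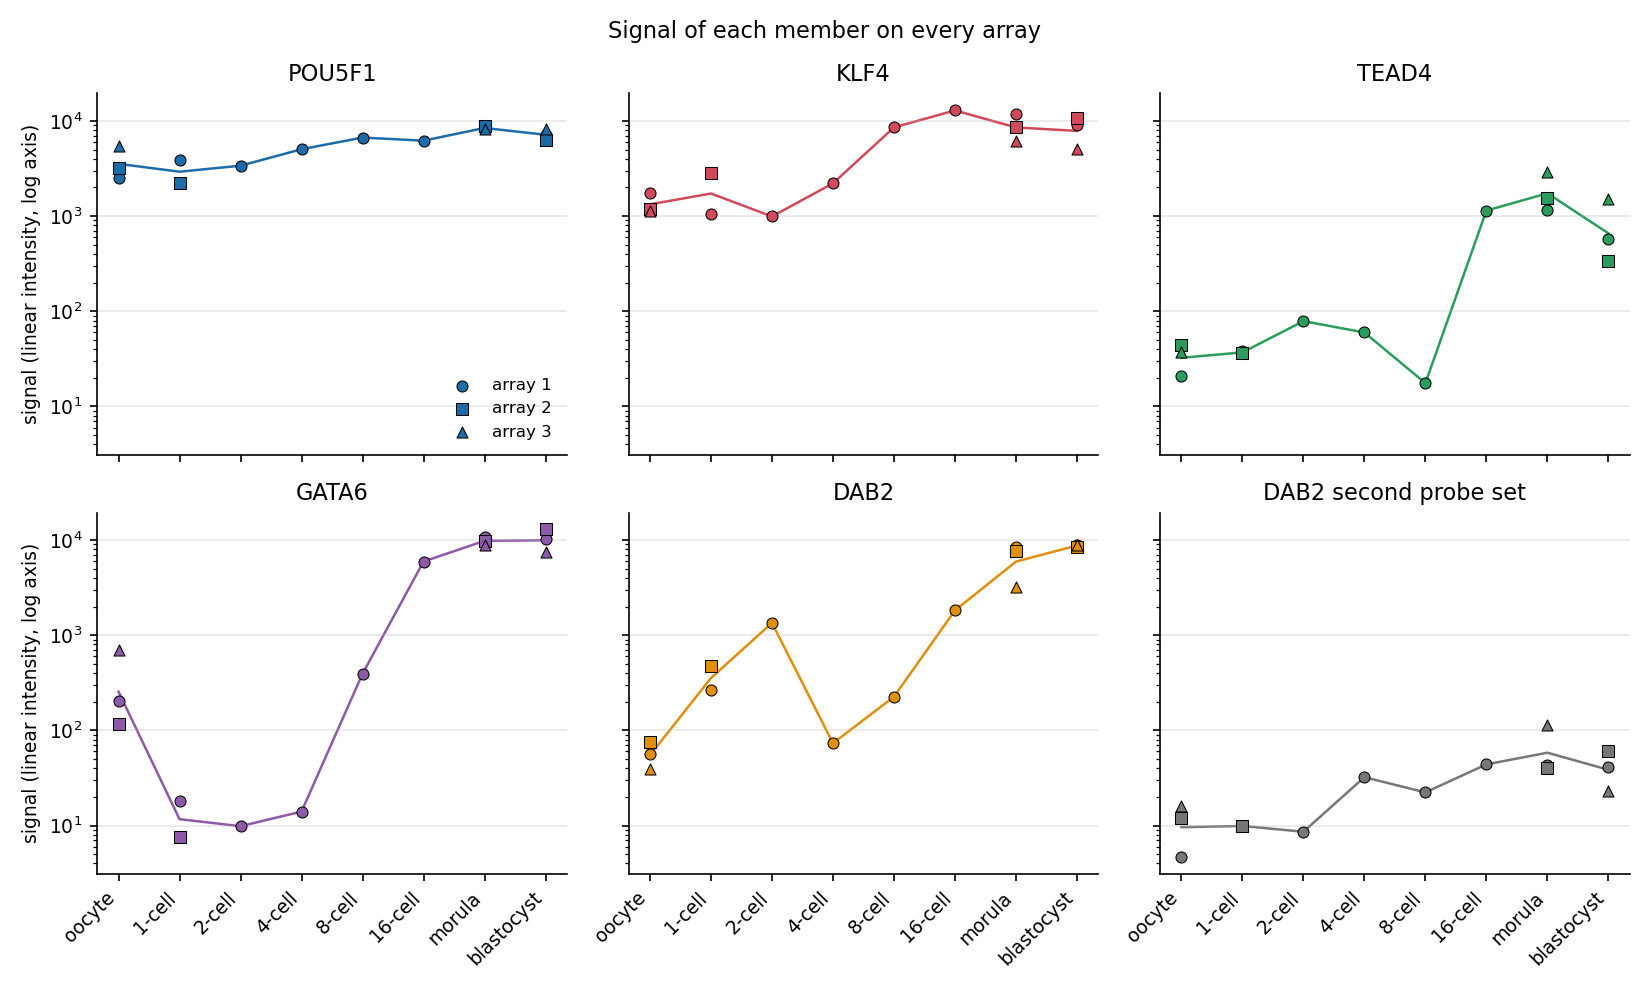
Signal of each of the 6 probe sets on every array, on a log axis, against stage. Circles, squares and triangles are arrays 1, 2 and 3 of a stage. The line joins the stage means, taken on the log2 scale of the signal with no constant added and converted back. POU5F1 stayed between 2210 and 8757 throughout, KLF4 stepped up at the 8-cell array, and TEAD4 and GATA6 were above 1000 on each array from the 16-cell stage to the morula.

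The plot of signals by stage shows that the 5 genes took 5 different courses. POU5F1 and KLF4 had signals above 1000 in every oocyte array and rose by 2.38- and 6.36-fold to the morula, whereas TEAD4, GATA6 and the leading DAB2 probe set rose by 35.7-fold or more from signals of 705 or less. The second DAB2 probe set rose by 2.86-fold. Changes are log2 differences of stage means of log2(value + 16), with the standard error (SE) from limma fitted to all 15 arrays, and p-values are Benjamini-Hochberg adjusted over all 24016 probe sets and read at 0.05. Between oocyte and morula all 6 probe sets rose past the test, where 11.8% of all probe sets did so. All 6 also had every morula array above every oocyte array, as had 20.1% of all probe sets. The members were chosen with earlier results of these data known, so such counts are no test of them as a group.

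POU5F1, described as keeping the inner cell mass pluripotent, was already at 2542, 3207 and 5446 in the 3 oocyte arrays. The 1-cell arrays gave 3878 and 2210, within the oocyte range at the upper end and just below it at the lower. Single arrays then gave 3384 at the 2-cell, 5043 at the 4-cell, 6687 at the 8-cell and 6200 at the 16-cell stage. Of these, only the 8- and 16-cell arrays lay above all oocyte arrays. Morula arrays were the highest and the closest together, at 8357, 8757 and 8199, and blastocyst arrays gave 7099, 6322 and 8148. From low to high the stages ran 1-cell, 2-cell, oocyte, 4-cell, 16-cell, 8-cell, blastocyst, morula. No step between neighbouring stages in time exceeded 0.57 on the log2 scale, which was the step from the 2- to the 4-cell array.

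In morulae POU5F1 rose by 1.25 over oocytes (SE 0.33, n = 3 and 3, adjusted p = 0.0245), or 2.38-fold on the log2(value + 16) scale, with a 95% interval of 0.52 to 1.98. This call was near the threshold. It was lost without oocyte array 1 (adjusted p = 0.0867), oocyte array 2 (0.0772), morula array 1 (0.0672) or morula array 2 (0.0783), with medians centred (0.0698), and with only the oocyte and morula arrays in the fit (0.0520). In blastocysts the change over oocytes was 1.01 (SE 0.33), with all arrays above all oocytes but an adjusted p of 0.0585. It passed with the replicate number as a block (adjusted p = 0.0497) and without oocyte array 3, the highest of the oocytes (1.32, adjusted p = 0.0131).

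KLF4, a zinc finger factor of the Kruppel family that is used with POU5F1 in reprogramming cells to pluripotency, gave 1733, 1185 and 1142 in oocytes. The 1-cell arrays differed more, at 1054 and 2830, and the 2-cell array had the lowest signal of all 15, at 992. The 4-cell array gave 2209, which lay above 5 of the 6 earlier arrays. At the 8-cell stage KLF4 stood at 8551, above all 7 earlier arrays, and the 16-cell array had the highest signal of the series, 12885. Morula arrays gave 11741, 8598 and 6180 and blastocyst arrays 9060, 10625 and 5040. The largest step was thus the one from the 4- to the 8-cell array, at 1.95, with no replicate at either stage.

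KLF4 rose by 2.67 in morulae over oocytes (SE 0.45, n = 3 and 3, adjusted p = 0.0024), which is 6.36-fold, and by 2.55 in blastocysts (SE 0.45, adjusted p = 0.0032). The stages from low to high were 2-cell, oocyte, 1-cell, 4-cell, blastocyst, morula, 8-cell and 16-cell, and the morula and blastocyst arrays overlapped. Against the pooled 2-, 4- and 8-cell arrays, morulae were higher by 1.68 (SE 0.45, adjusted p = 0.0223), although the 8-cell array lay within the morula range. That call was lost without the 2-cell array (0.97, adjusted p = 0.220), the 4-cell array (0.0552), morula array 1 (0.0867) or morula array 2 (0.0664) and with the control signal as a block (0.0678). Without the 8-cell array the difference was 2.52 (adjusted p = 0.0059). The 8-cell array alone was at the morula level, and the 2- and 4-cell arrays were below it.

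TEAD4, described as turning on trophectoderm genes in outer cells with its co-activators YAP1 and WWTR1, was low in oocytes, at 20.8, 44.3 and 37.2. It was 37.9 and 36.1 in 1-cell embryos, 78.8 on the 2-cell, 59.9 on the 4-cell and 17.6 on the 8-cell array. No detection limit is known for these signals, so that the order among these early arrays carries little weight. The 16-cell array gave 1144, above all 8 earlier arrays, and the step from the 8-cell array was 5.11 on the log2(value + 16) scale, a size that depends on the added constant because the 8-cell signal lies near it. Morula arrays gave 1170, 1537 and 2904. Blastocyst arrays gave 571, 334 and 1506 and overlapped the morula range. Its order was 8-cell, oocyte, 1-cell, 4-cell, 2-cell, blastocyst, 16-cell and morula, and oocytes and 1-cell embryos did not differ beyond their spread.

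Morulae had more TEAD4 signal than oocytes by 5.16 (SE 0.57, n = 3 and 3, adjusted p = 0.00023), or 35.7-fold, and blastocysts by 3.79 (SE 0.57, adjusted p = 0.0013), or 13.8-fold. With 64 added before the log in place of 16, these were 4.21 and 2.91. Blastocysts differed from morulae by -1.37 (SE 0.57, 95% interval -2.64 to -0.10), and the lower value was in the blastocyst in each pair of same-numbered arrays. The adjusted p was 0.594, so this was no call.

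GATA6, an early factor of the hypoblast, varied most between oocyte arrays on the log2 scale (SD 1.26), with signals of 202, 116 and 705. After fertilization it was near the bottom of the scale, at 18.2 and 7.50 on the 1-cell arrays, 9.85 on the 2-cell and 14.0 on the 4-cell array. All 4 of these arrays lay below every oocyte array. The signal was 394 on the 8-cell and 5941 on the 16-cell array, steps of 3.77 and 3.86. Morula arrays gave 10886, 9738 and 8895 and blastocyst arrays 10137, 13054 and 7408, and these overlapped. From low to high the stages were 2-cell, 1-cell, 4-cell, oocyte, 8-cell, 16-cell, morula and blastocyst, a fall and a rise of which the rise was by far the larger.

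The gain of GATA6 from oocyte to morula was 5.16 (SE 0.58, n = 3 and 3, adjusted p = 0.00026), or 35.7-fold, and to blastocyst 5.18 (SE 0.58, adjusted p = 0.00026). Without oocyte array 3, whose signal of 705 was the highest of the oocytes, these gains were 5.85 and 5.87. Over the 2- to 8-cell arrays morulae were higher by 7.17 (SE 0.58, adjusted p = 3.8e-05), with 2- and 4-cell signals below the constant of 16. With 1 or 64 added instead, the difference was 7.93 or 6.16. It was 6.47, 6.58 and 8.46 without the 2-, 4- and 8-cell array. The drop from oocyte to 1-cell embryos was -3.28 (SE 0.65, n = 3 and 2) with an adjusted p of 0.0852, and it passed without oocyte array 3 (-2.58, adjusted p = 0.0493). The pooled 2- to 8-cell arrays differed from oocytes by -2.01 (SE 0.58, adjusted p = 0.0755), and by -3.30 without the 8-cell array (adjusted p = 0.0185). Leaving out oocyte array 2 also brought this past the threshold (-2.54, adjusted p = 0.0422). It was -1.31 without the 2-cell array, -1.42 without the 4-cell array and -1.32 without oocyte array 3, none past it. With 1 added before the log the difference passed (-2.68, adjusted p = 0.0411). It also passed without the oocyte, morula and blastocyst arrays numbered 3 (-1.32, adjusted p = 0.0414).

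DAB2, the endocytic adaptor, gave 56.5, 75.1 and 39.1 in oocytes on its leading probe set, the one with the higher mean. On the 1-cell arrays it was 268 and 470, both above every oocyte array, and on the 2-cell array 1346. The 4-cell array gave 73.3, back in the oocyte range, and the 8-cell array 226. The step down from the 2- to the 4-cell array, -3.93 on the log2 scale, was the largest of its course and rested on 1 array at each stage. The 16-cell array gave 1821, morula arrays 8490, 7638 and 3219, and blastocyst arrays 8880, 8513 and 8868. The order was oocyte, 4-cell, 8-cell, 1-cell, 2-cell, 16-cell, morula, blastocyst.

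The leading DAB2 probe set gained 6.38 from oocyte to morula (SE 0.45, n = 3 and 3, adjusted p = 2.6e-05), or 83.4-fold, and 6.94 from oocyte to blastocyst (SE 0.45, adjusted p = 2.2e-05), or 123-fold, and with 64 added before the log in place of 16 these were 5.64 and 6.20. In 1-cell embryos the leading probe set was higher than in oocytes by 2.38 (SE 0.50, n = 3 and 2), with an adjusted p of 0.1097. It passed, at 2.19 and an adjusted p of 0.0388, without the arrays numbered 3 of the replicated stages. Of the 6 probe sets only this one rose past the test from oocytes to the pooled 2- to 8-cell arrays (2.11, SE 0.45, adjusted p = 0.0226), where 3.78% of all probe sets did so. Without the 2-cell array the change was 1.04 (adjusted p = 0.333), without the 4-cell array 3.01 (adjusted p = 0.0074), and without oocyte array 1 it no longer passed (adjusted p = 0.0669). With only these 2 groups in the fit the adjusted p was 0.169. The 2- and 8-cell arrays were above every oocyte array, and the 4-cell array lay within the oocyte range.

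The second DAB2 probe set stayed low and did not follow the first through cleavage. It gave 4.65, 11.9 and 16.0 in oocytes, 9.91 and 9.90 in 1-cell embryos, 8.61 on the 2-cell array and 32.2 on the 4-cell array, whereas the leading probe set was higher on the 2-cell than on the 4-cell array. The 8- and 16-cell arrays gave 22.3 and 43.9, morulae 43.7, 40.2 and 113, and blastocysts 41.5, 60.4 and 23.0. Its change from oocyte to morula was 1.52 (SE 0.36, adjusted p = 0.0160), which depended on the constant added before the log: it was 2.46 with 1 and 0.75 with 64, and the call was lost without oocyte array 1 (adjusted p = 0.0635). In blastocysts the change was 1.07 (adjusted p = 0.0689). It passed with 1 added before the log (1.88, adjusted p = 0.0445) and without blastocyst array 3 (1.33, adjusted p = 0.0424). Without the arrays numbered 3 of the replicated stages it passed too (1.46, adjusted p = 0.0042). With the control signal as a block it was 1.15 (adjusted p = 0.0605). Among the arrays without that signal, with 1 oocyte array, it was 1.68. Among those with it, with 1 blastocyst array, it was 0.38. Both probe sets were thus higher in morulae than in oocytes, by very different amounts.

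**Figure D2:**
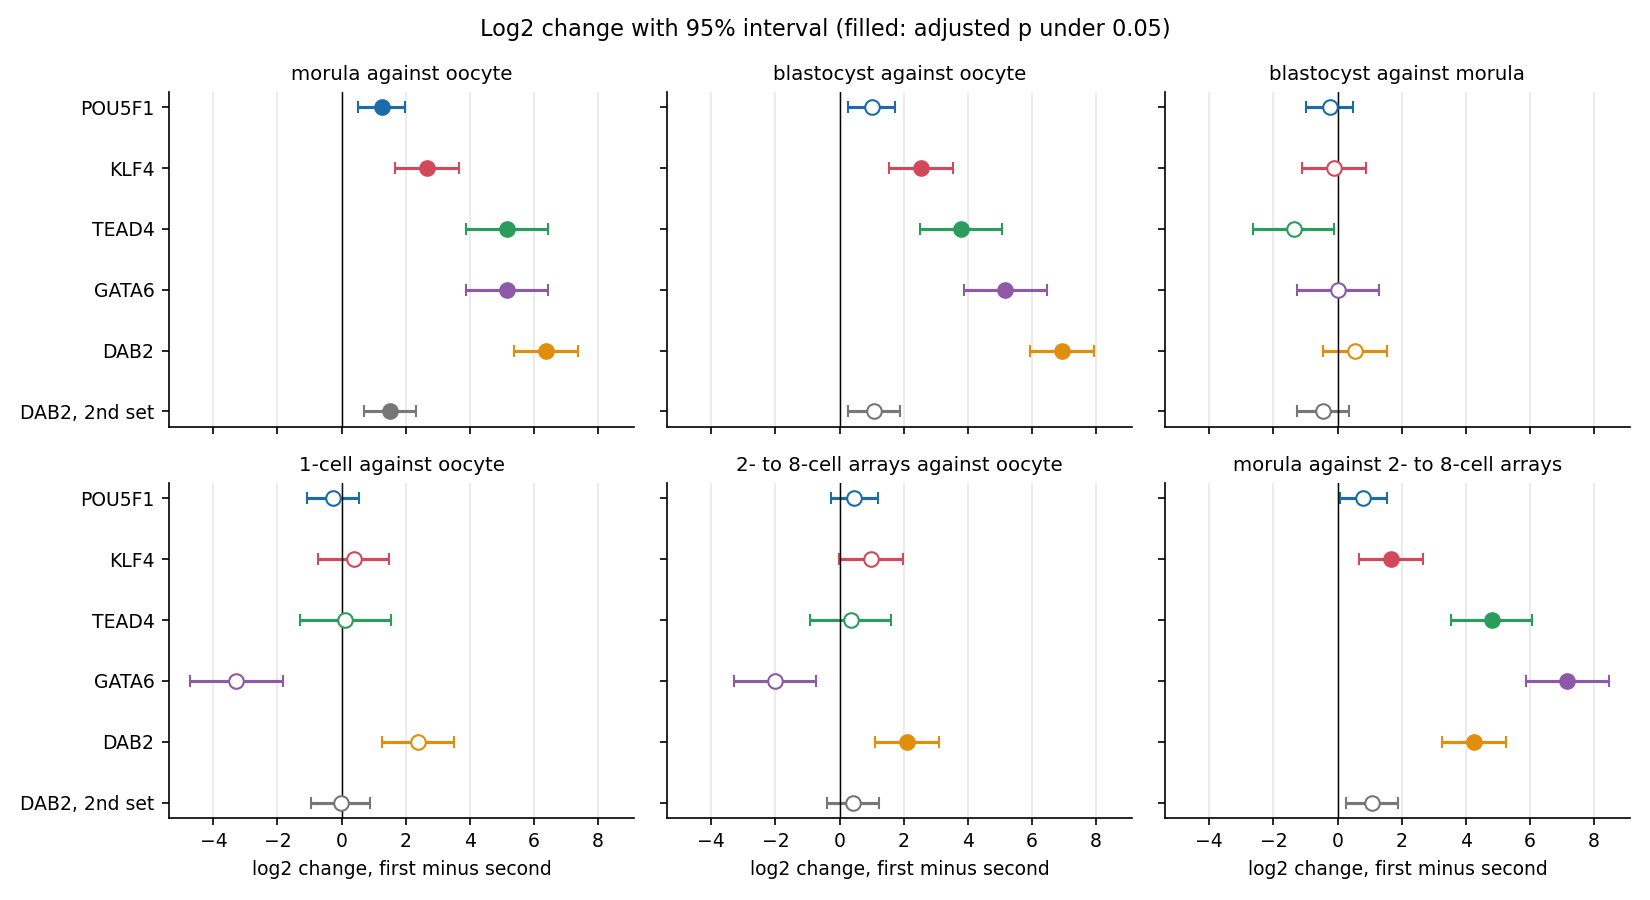
Log2 change of each probe set in the 6 comparisons, as the difference of stage means of log2(value + 16), with the 95% interval from limma; filled points have an adjusted p under 0.05. All 6 points are filled for morulae against oocytes, 4 for blastocysts against oocytes, and none for blastocysts against morulae or 1-cell embryos against oocytes.

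From oocyte to blastocyst 4 of the 6 probe sets rose past the test (11.9% of all probe sets), those of KLF4, TEAD4 and GATA6 and the leading one of DAB2, and all 6 had every blastocyst array above every oocyte array (19.4% of all). Both comparisons use the same oocyte arrays. From the pooled 2- to 8-cell arrays to the morula 4 rose past the test (13.0% of all): KLF4, TEAD4 by 4.81 (SE 0.57, and 5.43 with the control signal as a block), GATA6, and DAB2 by 4.27 (SE 0.45, and 5.34 without the 2-cell and 3.37 without the 4-cell array). All but KLF4 had every morula array above each of the 3 cleavage arrays, 5 of 6 against 19.3% of all probe sets. POU5F1 was higher by 0.80 there (SE 0.33, adjusted p = 0.115) and the second DAB2 probe set by 1.08 (SE 0.36, adjusted p = 0.0584). From oocytes to the pooled 2- to 8-cell arrays POU5F1 differed by 0.45 (SE 0.33), KLF4 by 0.99 (SE 0.45), TEAD4 by 0.34 (SE 0.57) and the second DAB2 probe set by 0.43 (SE 0.36), none past the test. The 2-, 4- and 8-cell stages had 1 array each, which the fit took to vary like the replicated stages.

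Between morula and blastocyst limma called 0 of the 6 probe sets, against 0.167% of all, and 1 (TEAD4) had an unadjusted p under 0.05. The differences were -0.24 for POU5F1 (95% interval -0.97 to 0.50), -0.12 for KLF4 (-1.12 to 0.88), 0.019 for GATA6 (-1.27 to 1.31), 0.56 for DAB2 (-0.44 to 1.56) and -0.45 for its second probe set (-1.26 to 0.37). Arrays of both stages did not overlap for POU5F1, lower in blastocysts, and for DAB2, higher, so 2 of 6 were separate where 14.2% of all probe sets were. Between oocyte and 1-cell embryo limma also called 0 of 6 (0.271% of all), and 2, GATA6 and DAB2, had an unadjusted p under 0.05. The same 2 were the ones whose arrays did not overlap, as for 21.2% of all probe sets. The other changes were -0.27 for POU5F1 (SE 0.37), 0.38 for KLF4 (SE 0.50), 0.11 for TEAD4 (SE 0.64) and -0.029 for the second DAB2 probe set (SE 0.41).

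Among the 6 arrays without the control signal were 1 oocyte and 2 morula arrays. The oocyte had no replicate there, and the fit took it to vary like the morula and blastocyst pairs. In that fit the changes from oocyte to morula were 1.74 for POU5F1, 2.52 for KLF4, 5.21 for TEAD4, 5.56 for GATA6 and 6.80 and 1.49 for DAB2. Among the 9 arrays with it were 2 oocyte arrays and 1 morula array, and the corresponding changes were 0.97, 2.39, 5.69, 4.85, 5.51 and 2.10. That fit had 1 residual degree of freedom and called 0 probe sets of 24016 in any comparison. With the control signal as a block in the fit of all 15 arrays, the changes were 1.28, 2.57, 5.46, 5.09, 6.32 and 1.60, and each passed. The arrays numbered 3 gave the lowest signals of their stage for KLF4 and GATA6 in both morulae and blastocysts, and the highest for TEAD4.

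**Figure D3:**
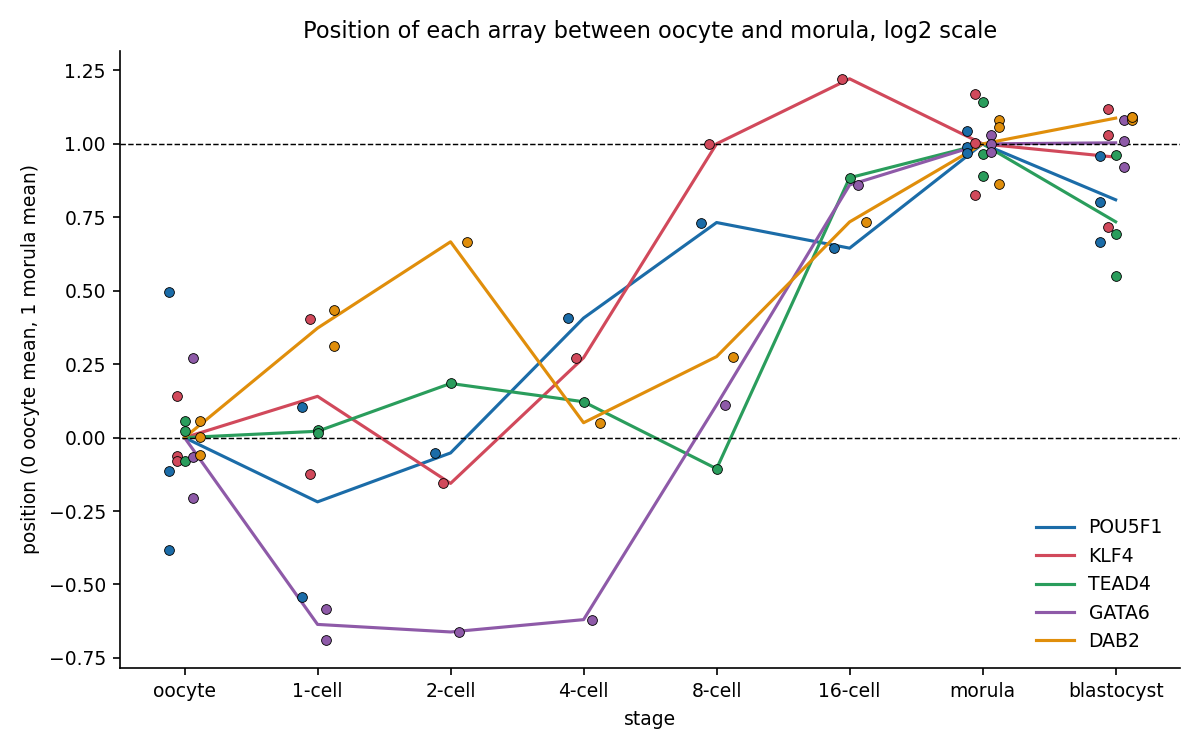
Position of every array between the oocyte mean (0) and the morula mean (1) of each gene, on the log2(value + 16) scale, by stage; points are arrays and lines join stage means. KLF4 reached 1.00 at the 8-cell array, TEAD4 was at -0.11 there and at 0.88 at the 16-cell array, and DAB2 was at 0.67 at the 2-cell and 0.05 at the 4-cell array.

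On a common scale, with the oocyte mean at 0 and the morula mean at 1, the genes covered their distance at different stages. KLF4 had covered all of it at the 8-cell array (1.00) and had passed it at the 16-cell array (1.22). POU5F1 stood at 0.41 at the 4-cell, 0.73 at the 8-cell and 0.65 at the 16-cell array, but its oocyte arrays alone ranged from -0.38 to 0.50. GATA6 was at 0.11 at the 8-cell and 0.86 at the 16-cell array, and TEAD4 went from -0.11 to 0.88 over the same step. DAB2 was at 0.28 and then 0.73. At the 16-cell array KLF4, TEAD4, GATA6 and both DAB2 probe sets were each above all 8 earlier arrays, and POU5F1 was above 7 of them. The share of all probe sets that did so was not counted, so this is not read as particular to these genes. The array also had the highest mean signal of the series, 717, and high signals of the stromal markers COL1A2, VIM and LUM. Over the 15 arrays the pairs of genes correlated at Pearson r from 0.65 (POU5F1 with DAB2) to 0.85 (TEAD4 with DAB2), which describes points that share their arrays and the common contrast of early and late stages. The 2 probe sets of DAB2 correlated at 0.63.

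The genes whose signals over the 15 arrays were most like each member, among 9723 named probe sets with a stage mean of at least 64, were as follows. POU5F1 was most like ACTN1 (an actin crosslinker, r = 0.94), TKT (transketolase, 0.94) and ILF2 (0.94), and ACTN1 went from 3876 in oocytes to 8860 in morulae. KLF4 was most like the immediate early phosphatase gene DUSP1 (0.94), the kinase gene SGK1 (0.94) and FUNDC1 (0.94), and DUSP1 too was highest on the 16-cell array, at 9697, after 4838 on the 8-cell array. For TEAD4 they were the cullin CUL2 (0.98), MARVELD1 (0.98) and URM1 (0.98), and CUL2 went from 14.7 on the 8-cell to 1112 on the 16-cell array and down to 407 in blastocysts. GATA6 was nearest to the mitochondrial phosphate carrier SLC25A3 (0.98), the small GTPase RAB14 (0.97) and NANS (0.97). DAB2 was nearest to the calpain CAPN5 (0.96), GDE1 (0.96) and the respiratory complex I subunit NDUFB10 (0.95). The order of likeness shifted with the points used: over the 8 stage means the 3 genes nearest to POU5F1 ranked 18, 3 and 12. Over the oocyte, morula and blastocyst arrays alone they ranked 29, 181 and 46. There the genes named for KLF4 ranked 72, 537 and 353, and those for TEAD4 ranked 1, 20 and 17.

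The 6 lists of related genes place the members among their partners, with 120 genes listed and 54 measured. Their counts are read for morulae against oocytes, where 11.8% of all probe sets were higher and 7.16% lower and the median change was 0.040. The lists too were chosen with earlier results of these data known, so their counts are descriptions only. Of the pluripotency list 3 of 21 genes were measured: KLF5, a Kruppel factor, rose by 2.26 (SE 0.66) from a mean signal of 1689 ± 1271 (SD, n = 3) to 6556 ± 803. That call was lost without oocyte array 1 or 2 or without any morula array. SOX2, the partner of POU5F1 on DNA, differed by 1.26 (SE 0.80) and STAT3 by -2.62 (SE 0.83), neither past the test. The median of the 3 was 1.26.

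In the trophectoderm list few measured genes were higher in morulae and more in blastocysts. In morulae 2 of 13 measured genes (of 20 listed) were higher and 0 lower, with a median of 0.54: the keratins KRT18, up by 6.19 (SE 0.53) to 2906 ± 1844 (SD, n = 3), and KRT7, up by 4.05 (SE 0.40). In blastocysts 6 were higher than in oocytes and 1 lower, against 11.9% and 7.36% of all probe sets, with a median of 2.27. The higher ones included TFAP2A, a trophectoderm transcription factor, at 4.07 (SE 0.70), KRT8 at 3.47 (SE 0.49), and the interferon tau gene IFNT2, the signal by which the ruminant embryo is recognized, at 4.36 (SE 0.52). IFNT2 was also higher in blastocysts than in morulae (3.71, SE 0.52), as 1 of the 13, where 0.167% of all probe sets were called. With only the morula and blastocyst arrays in the fit, 0 probe sets were called in that comparison. TFAP2A had signals of 333 and 539 on the 8- and 16-cell arrays but a mean of 25.4 in morulae. TEAD4 by comparison had its highest signals in morulae.

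Of the hypoblast and basement membrane list 12 of 18 genes were measured. In morulae 3 were higher and 2 lower, with a median of 0.11. Fibronectin (FN1) rose by 4.80 (SE 0.52), the receptor PDGFRA by 4.07 (SE 0.78) and the matrix protein gene SPARC by 3.58 (SE 0.88). HHEX, a homeobox factor of anterior endoderm, fell by 5.73 (SE 0.89), from 5516 ± 750 (SD, n = 3) to 136 ± 121, and the laminin gene LAMC1 fell by 1.98 (SE 0.47). GATA4, the factor that acts beside GATA6 in endoderm, differed by -0.37 (SE 0.45) and was at 354 to 487 in the means of oocytes, morulae and blastocysts. In blastocysts 5 were higher than in oocytes, with LAMB1 at 2.89 (SE 0.75) and the basement membrane linker NID1 at 2.83 (SE 0.49) added, and 1 was lower. SPARC, FN1 and PDGFRA are also made by stromal cells, whose summed markers were highest on the 16-cell array and morula array 3. On the 16-cell array these genes gave 667, 589 and 106. Their means in blastocysts were 1039, 9440 and 2769, where the stromal markers summed to 638 to 908. A part of stromal cells in these signals was not tested. Another probe set of FN1 changed by 0.36 and others of PDGFRA by 1.25 and -0.14. LAMC1 had 6 probe sets, and only the 1 with the highest mean is given here.

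The Hippo list had 7 of 20 genes measured, with 1 higher, 0 lower and a median of 0.040, the same as over all probe sets. The one was the kinase LATS1 (1.28, SE 0.34), from a mean of 3.92 to 32.1, both low signals, and it was no longer past the test with 1 added before the log. The upstream kinases STK3 and STK4 gave -0.62 (SE 0.45) and -0.15 (SE 1.05), and neither passed. The signals of TEAD2 and TEAD3, relatives of TEAD4, differed by 0.040 (SE 0.29) and 0.13 (SE 0.49). No probe set carried the symbol YAP1, WWTR1 or TEAD1, and CDX2, GATA3, NANOG and SOX17 were likewise not analysed here.

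Of the clathrin adaptor partners and cargo receptors of DAB2, 12 of 20 were measured, and in morulae 7 were higher and 0 lower, with a median of 1.59. The largest were the recycling protein gene EHD1 (5.28, SE 0.69) and the adaptor AP2 subunits AP2B1 (4.79, SE 0.75) and AP2S1 (4.06, SE 0.71), followed by AP2A2 (4.00, SE 0.43). The clathrin chains CLTA, CLTC and CLTB rose by 2.36 (SE 0.49), 1.62 (SE 0.34) and 1.55 (SE 0.46). EHD1 went from 110 ± 112 (SD, n = 3) in oocytes to 3437 ± 668 in morulae, with 1176 on the 16-cell array. CUBN, a cargo receptor of DAB2, stayed at 1.00 to 7.98 in the stage means. In blastocysts 6 of the 12 were higher than in oocytes and 0 lower. The other AP2B1 probe sets changed by -0.08 and -0.21 and did not pass.

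**Figure D4:**
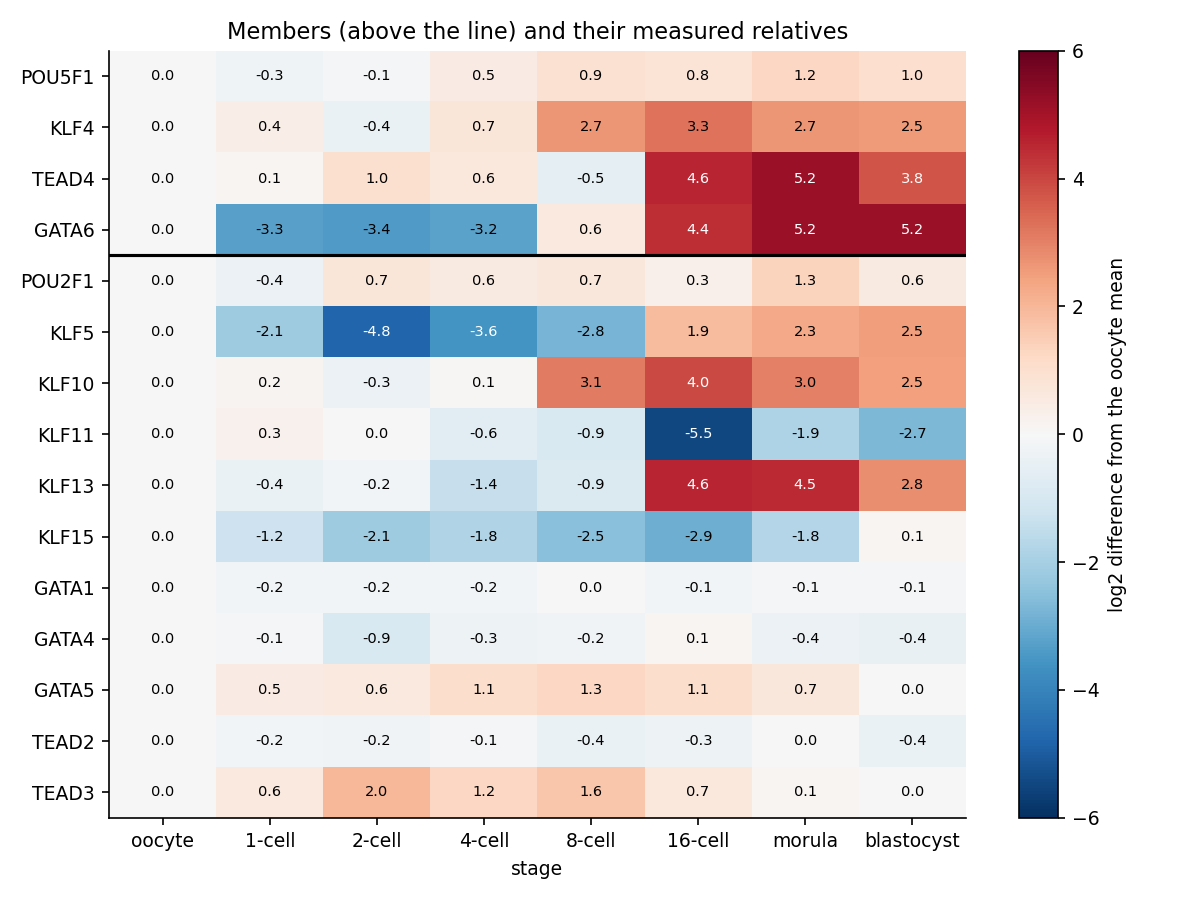
Log2 difference of each stage from the oocyte mean, on the log2(value + 16) scale, for the 4 transcription factors (above the line) and the 11 measured members of their POU, KLF, GATA and TEAD families (below), with the value in each cell; the 2-, 4-, 8- and 16-cell columns are single arrays. KLF10 and KLF13 rose by 3.04 and 4.46 in morulae, and GATA4, TEAD2 and TEAD3 stayed within 0.37 of the oocyte mean there.

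Among relatives of the 4 factors in their own families 11 of 30 were measured, and 4 were higher and 0 lower in morulae, with a median of 0.13. KLF13 rose by 4.46 (SE 0.68), from 115 ± 71.7 (SD, n = 3) to 2554 ± 674, and like TEAD4 it was low on the 8-cell array (47.3) and high on the 16-cell array (2721). KLF10 rose by 3.04 (SE 0.61) and like KLF4 was higher on the 8-cell array (202) than on any earlier stage's mean, the highest of which was 12.0. KLF5 gave 33.9 on the 2-cell, 96.1 on the 4-cell, 182 on the 8-cell and 5128 on the 16-cell array, so that, as for GATA6, its 2- and 4-cell signals were below its oocyte mean and its 16-cell signal above it. GATA5 rose by 0.67 (SE 0.20) from a mean of 9.45 to 23.7. KLF11 and KLF15 differed by -1.87 (SE 1.01) and -1.76 (SE 0.96) without passing. The second KLF10 probe set rose by 1.82 and the second KLF5 probe set differed by 2.59 without passing.

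The share of higher calls over all probe sets depended on the scaling between arrays. For morulae against oocytes there were 2830 higher and 1720 lower calls as deposited, 2431 and 2302 after quantile normalization and 2511 and 2269 after median centring. Against oocytes, blastocysts had 2856 and 1768, then 2465 and 2295, and 2527 and 2270. Morulae against the 2- to 8-cell arrays had 3126 and 2388, then 2725 and 3084, and 2653 and 3343. Median centring moved the median of all probe sets from 0.040 to -0.14, from 0.014 to -0.16 and from 0.0089 to -0.26 in these comparisons. No called change of the 5 genes turned its direction under either scaling.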

How the data were processed

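Intensities on a linear scale for 24128 probe sets on 15 arrays were used as the authors deposited them. Amplification in 3 rounds and biotin labelling are per the labels' protocols. The sources used here give no summarisation, scaling or floor. After 112 control probe sets were left out, 24016 were tested on log2(value + 16), which understates changes of low signals.

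Stages came from the titles. limma (version 3.58.1, R 4.3.3) fitted a mean per stage to all 15 arrays, with 7 residual degrees of freedom, an intensity-dependent prior variance and adjustment by Benjamini-Hochberg over all probe sets at 0.05. Stages with 1 array have values only, except in the pooled 2- to 8-cell contrasts. The procedure was tested on simulated data.

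Symbols came from the platform annotation, updated through gene identifiers to RefSeq (ARS-UCD2.0), where all 5 genes matched. Of the probe sets 13292 had 1 symbol, 86 several and 10638 none, and 13263 had an identifier in RefSeq. Named besides the members were, per list, the 3 largest changes past the test between oocyte and morula, and the 3 genes most like each member. Other list genes were named after their values were seen. A gene with several probe sets was read from the one with the highest mean. The members and lists were chosen with earlier results of these data known.

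Pairing by replicate number was checked on each array's deviation from its stage mean. For arrays 1, 2 and 3 these deviations correlated at 0.142, 0.107 and 0.182 (oocyte with morula), 0.278, 0.276 and 0.285 (oocyte with blastocyst) and 0.195, 0.106 and 0.306 (morula with blastocyst), so by the rule of a correlation over 0.1 in every pair the block was read as paired for these stages. Arrays of different numbers also correlated, such as morula 1 with blastocyst 2 at 0.304, morula 2 with blastocyst 1 at 0.181 and oocyte 2 with morula 1 at 0.155, so these values do not tell pairing by number from arrays 3 standing apart. Oocyte and 1-cell arrays gave 0.183 and -0.115. Alternatives were pseudocounts of 1 and 64, quantile normalization, median centring, other variance models, a filter, the compared stages alone, the control signal as a block or within each class, and leaving out arrays. Figures used matplotlib 3.10.9 in Python 3.11.15.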

Additional observations from a re-analysis of the deposited data

How the results depend on the processing

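The 36 results for the 6 probe sets (each in 6 comparisons) were refitted 648 times. None of the 15 that passed the test changed sign, and none kept its call in all alternatives, because the arrays with control signal alone left 1 residual degree of freedom and called nothing. Under that setting the number of probe sets past the test was 0 for morulae against oocytes, blastocysts against oocytes, 2- to 8-cell arrays against oocytes and morulae against 2- to 8-cell arrays. For 2- to 8-cell arrays against oocytes it was 2 with a pseudocount of 1, 0 with the compared stages only and 2 without the arrays numbered 3, and ran from 0 to 2 when 1 array was left out. For 1-cell embryos against oocytes it was 2 without the arrays numbered 3, and ran from 0 to 1 when 1 array was left out.

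Signs turned for 7 results, none past the test. Between morula and blastocyst GATA6 gave -0.031 after quantile normalization and -0.26 in the arrays with control signal, and the second DAB2 probe set gave 0.19 in the arrays without control signal and 0.19 without the arrays numbered 3. When 1 array was left out, KLF4 ran from -0.35 to 0.20 and GATA6 from -0.18 to 0.23. Between oocyte and 1-cell embryo TEAD4 gave -0.12 in the arrays with control signal. In the arrays without it POU5F1 gave 0.61, KLF4 -0.71 and the second DAB2 probe set 0.33. Without the arrays numbered 3 POU5F1 gave 0.036 and the second DAB2 probe set 0.11, and that probe set gave 0.020 with a pseudocount of 1 and 0.012 with the control signal as a block. When 1 array was left out, POU5F1 ran from -0.68 to 0.13, KLF4 from -0.33 to 1.08, TEAD4 from -0.10 to 0.26 and the second DAB2 probe set from -0.21 to 0.11.

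With the replicate number as a block the second DAB2 probe set gave 0.060 between oocyte and 1-cell embryo, and POU5F1 in blastocysts against oocytes passed at an adjusted p of 0.0497. The pairing changed no other call of the 24 it was run on. Of the 12 list genes named by the rule, KLF5 and LATS1 lost their calls under 8 alternatives each and the other 10 only in the arrays with control signal alone. Over all probe sets, 4550 were called for morulae against oocytes, and 7102 without the arrays numbered 3. For blastocysts against morulae the 40 calls ran from 0 to 95, for 1-cell embryos against oocytes the 65 from 0 to 419, for 2- to 8-cell arrays against oocytes the 1488 from 0 to 4661, and for morulae against 2- to 8-cell arrays the 5514 from 0 to 8809. The cause of these changes was not tested. Low signals limit TEAD4 before the 16-cell stage, GATA6 from the 1- to the 4-cell stage and the second DAB2 probe set throughout, because no background level is known.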
